A study of Mus musculus with 24 samples.

Results

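The thioredoxin-interacting protein gene Txnip was described together with 2 further alpha-arrestin genes, Arrdc4 and Arrdc3, and with the 3 transcription factor genes of the glucose-sensing MondoA, ChREBP and MLX system, Mlxip, Mlxipl and Mlx. The 6 genes were taken by symbol, each has 1 probe set annotated to that symbol alone, and they are 6 of 19938 genes measured by such a probe set. They were chosen by a measured value, the Txnip oxygen response, which differed in sign between culture states. The oxygen differences of these 6 genes are therefore given as a description, with no test, and only their level differences between regions or culture times at 1 oxygen level were tested. Those contrasts differ from the oxygen contrast but use the same arrays, so they are not independent of the choice.

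The samples were primary cultures of C57Bl/6 mouse fetal midbrain or cortex, taken at embryonic day 14 and kept in expansion medium, a medium for neural stem and progenitor cells. The 8 groups of 3 arrays each were midbrain 48 h at 3% O2, midbrain 48 h at 21% O2, midbrain 13 d at 3% O2, midbrain 13 d at 21% O2, cortex 48 h at 3% O2, cortex 48 h at 21% O2, cortex 13 d at 3% O2 and cortex 13 d at 21% O2. All values are log2 signals of a whole-transcript gene array, so a difference of 1 is a doubling. The labels do not say whether arrays of a group came from separate animals or cultures, so errors and p-values cover the spread between these samples, which may be technical. The 6 midbrain 13 d arrays were run 1 and the other 18 run 2, so levels of midbrain 13 d cultures cannot be told apart from the run when set against the other groups.

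Txnip binds reduced thioredoxin and promotes the removal of the glucose transporter GLUT1 from the cell surface, and thus restrains glucose uptake. Arrdc4 encodes a close relative that also restrains glucose uptake, whereas the Arrdc3 product is best known for the trafficking of the beta-2 adrenergic receptor. MondoA (Mlxip) and ChREBP (Mlxipl) pair with MLX (Mlx), bind E-box-like carbohydrate response elements when glucose phosphates are plentiful, and raise transcription of Txnip and Arrdc4 among other genes.

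The promoters of Txnip and Arrdc4 are shown because both genes are known targets of the MondoA and MLX pair through such elements, and because they had the widest level range of the alpha-arrestin members. The sequences are the 250 bases before the gene start in RefSeq, build GRCm38.p6, which held promoter windows for 6 of the 6 genes. Txnip lies at chr3:96557707-96557956 on the plus strand and Arrdc4 at chr7:68749239-68749488 on the minus strand. Capitals mark CACGNG, the E-box-like unit of a carbohydrate response element, and GTAAACA, a FOXO core, on either strand.
Txnip: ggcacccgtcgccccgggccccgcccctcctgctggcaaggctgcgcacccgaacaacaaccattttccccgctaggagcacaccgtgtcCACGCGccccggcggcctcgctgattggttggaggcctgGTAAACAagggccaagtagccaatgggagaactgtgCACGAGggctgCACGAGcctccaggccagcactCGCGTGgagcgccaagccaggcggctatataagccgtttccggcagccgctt
Arrdc4: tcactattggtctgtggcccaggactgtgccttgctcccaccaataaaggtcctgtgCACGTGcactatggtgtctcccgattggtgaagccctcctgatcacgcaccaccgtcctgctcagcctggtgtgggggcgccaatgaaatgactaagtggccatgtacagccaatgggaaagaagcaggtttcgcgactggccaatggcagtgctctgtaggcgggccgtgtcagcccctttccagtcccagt
The Txnip window held 4 CACGNG matches, and 2 of them, at 85 and 74 bases before the start, stand 5 bases apart as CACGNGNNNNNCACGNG. At least 1 CACGNG was found in 23.5% of 32851 promoter windows of this length, at least 4 in 0.244% and the spaced pair in 0.0457%. Arrdc4 held 1 CACGNG match, at 193 bases before the start, which is also the palindromic E-box CACGTG (found in 6.02% of windows) and so is counted again on both strands as ACGTG, the core of the hypoxia response element (16.6%). The Txnip window also held 1 GTAAACA (3.17% of windows) and no ACGTG. The CCAAT box letters occurred 2 times in the Txnip window and 6 times in the Arrdc4 window, and 10.1% and 0.0578% of windows held at least that many. Of the other members, Mlx held 1 CACGNG, 1 of 2 Mlxipl windows held 2, and Mlxip and the 3 Arrdc3 windows held 0. These are matches of letters and were not tested as binding sites.

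The labelled cell types and times were checked against marker genes before the members were compared. The mean of 10 neuron markers (Tubb3, Stmn2 and others) was 12.15 and 12.24 in midbrain 48 h at 3% and 21% O2 and 11.65 and 11.68 in cortex labelled 13 d, but 8.67 and 8.57 in midbrain 13 d and 9.25 and 9.61 in cortex labelled 48 h. Neural stem, astrocyte and oligodendrocyte lineage markers ran the other way. All 12 of 12 cortex arrays correlated better with midbrain arrays of the other labelled time than with those of their own, and the cortex genes Tbr1, Neurod6 and Neurod2 were highest in cortex labelled 13 d, with Tbr1 at 11.17 to 11.50 there against 6.35 to 7.03 in cortex labelled 48 h. The cortex time labels thus go against these markers and may be exchanged, which these files cannot settle. If so, every comparison of regions at a labelled time would set cultures of different age side by side. Cortex times are therefore written as labelled, and the neuron-rich cultures are midbrain 48 h and cortex labelled 13 d. The mean of 6 cortex identity markers was 7.55 and 7.99 in cortex labelled 48 h at 3% and 21% O2. That lay below midbrain 48 h (8.13 and 8.27) but above midbrain 13 d (7.09 and 7.21). The cortex identity list includes Tbr1, Neurod6 and Neurod2, and the neuron marker means differed between these cultures too. Of 7 midbrain identity markers, 6 at 3% O2 and 7 at 21% O2 were called higher in midbrain 48 h than in cortex labelled 48 h, and 0 lower. Of all probe sets, 24.3% were called higher in midbrain at each oxygen level, and 36.9% and 30.5% lower at 3% and 21% O2. The cortex markers thus leave the region of cortex labelled 48 h unclear.

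Some arrays stood apart from their groups. Replicate 1 of cortex labelled 48 h at 21% O2 had an astrocyte marker mean of 9.11 against 10.44 and 10.24 on replicates 2 and 3, an oligodendrocyte lineage mean of 9.76 against 10.75 and 10.65, and a mean of 10 hypoxia target genes of 10.03 against 10.75 and 10.63. Replicate 1 of cortex labelled 48 h at 3% O2 had 9.13 for the midbrain gene En2, against 7.26 and 7.36 on replicates 2 and 3. In midbrain 48 h, replicate 3 had a pericyte and fibroblast marker mean of 8.52 at 3% O2 and 8.55 at 21% O2, against 7.12 to 7.31 on the other arrays. In midbrain 48 h at 3% O2, replicate 1 had a mean of the hypoxia target genes of 9.92, against 9.04 and 9.36 on replicates 2 and 3. Several results that rest on these arrays are also given without them. The low-oxygen treatment itself was visible in hypoxia targets: by limma with Benjamini-Hochberg adjustment over 23410 probe sets, 8 of 10 panel genes were higher at 3% O2 in midbrain 48 h, 9 in midbrain 13 d, 5 in cortex labelled 48 h and 9 in cortex labelled 13 d, and 0 were lower. Over all probe sets, 0.701%, 11.2%, 6.25% and 0.543% were called higher in this order of cultures. Slc16a3, encoding the lactate exporter MCT4, rose by 2.50, 1.38, 1.09 and 4.32 in these cultures (limma adjusted p 2.33e-07 to 0.0208), and the call in cortex labelled 48 h was lost without replicate 1 of either oxygen level. Vegfa, the angiogenic growth factor gene, rose in midbrain 48 h (limma adjusted p = 0.00195), midbrain 13 d (1.30) and cortex labelled 13 d (1.78). It did not pass in cortex labelled 48 h (0.55, adjusted p = 0.126), where it differed by 0.13 without replicate 1 at 21% O2. Without replicate 1 at 3% O2 the Slc16a3 rise in midbrain 48 h was 2.00. Pdk1, which restrains entry of pyruvate into mitochondria, rose by 1.57, 0.76 and 2.74 in the same 3 cultures as Vegfa. Its rise in midbrain 48 h was 1.21 without replicate 1 at 3% O2. Pdk1 did not pass in cortex labelled 48 h (0.66, adjusted p = 0.0693), where it differed by 0.38 without replicate 1 at 21% O2. Its midbrain 13 d call was lost without replicate 1 or 2 at 3% O2 or replicate 1 at 21% O2 (adjusted p 0.0504 to 0.0737).

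Txnip was the most variable of the 6 genes, and its level at 3% O2 was above that at 21% O2 in the neuron-rich cultures and below it in the others. In midbrain 48 h, Txnip read 7.43, 7.23 and 7.35 at 3% O2, against 7.12, 6.81 and 6.43 at 21% O2. The arrays did not overlap, and the difference was 0.55 ± 0.24 (SE, n = 3 each), or 0.54 without replicate 3 at 3% O2 and 0.37 without replicate 3 at 21% O2. In cortex labelled 13 d, Txnip read 8.86, 9.04 and 9.06 at 3% O2, against 7.86, 7.98 and 7.83 at 21% O2. Every 3% O2 array lay above every 21% O2 array, with a difference of 1.10 ± 0.24 (2.14-fold higher at 3% O2).

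In midbrain 13 d, Txnip read 9.40, 9.20 and 9.48 at 3% O2, against 10.61, 10.68 and 10.67 at 21% O2. The groups again did not overlap, now with 3% O2 lower by 2.45-fold (difference -1.29 ± 0.24), and the 21% O2 arrays carried the highest Txnip values of the series. In cortex labelled 48 h, Txnip read 8.22, 8.44 and 8.15 at 3% O2, against 8.22, 9.69 and 9.47 at 21% O2. Replicate 1 at 21% O2 fell among the 3% O2 arrays, so the groups overlapped. The difference was -0.86 ± 0.24 with that array and -1.31 without it, and -1.29 without replicate 1 of both groups.

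**Figure D1:**
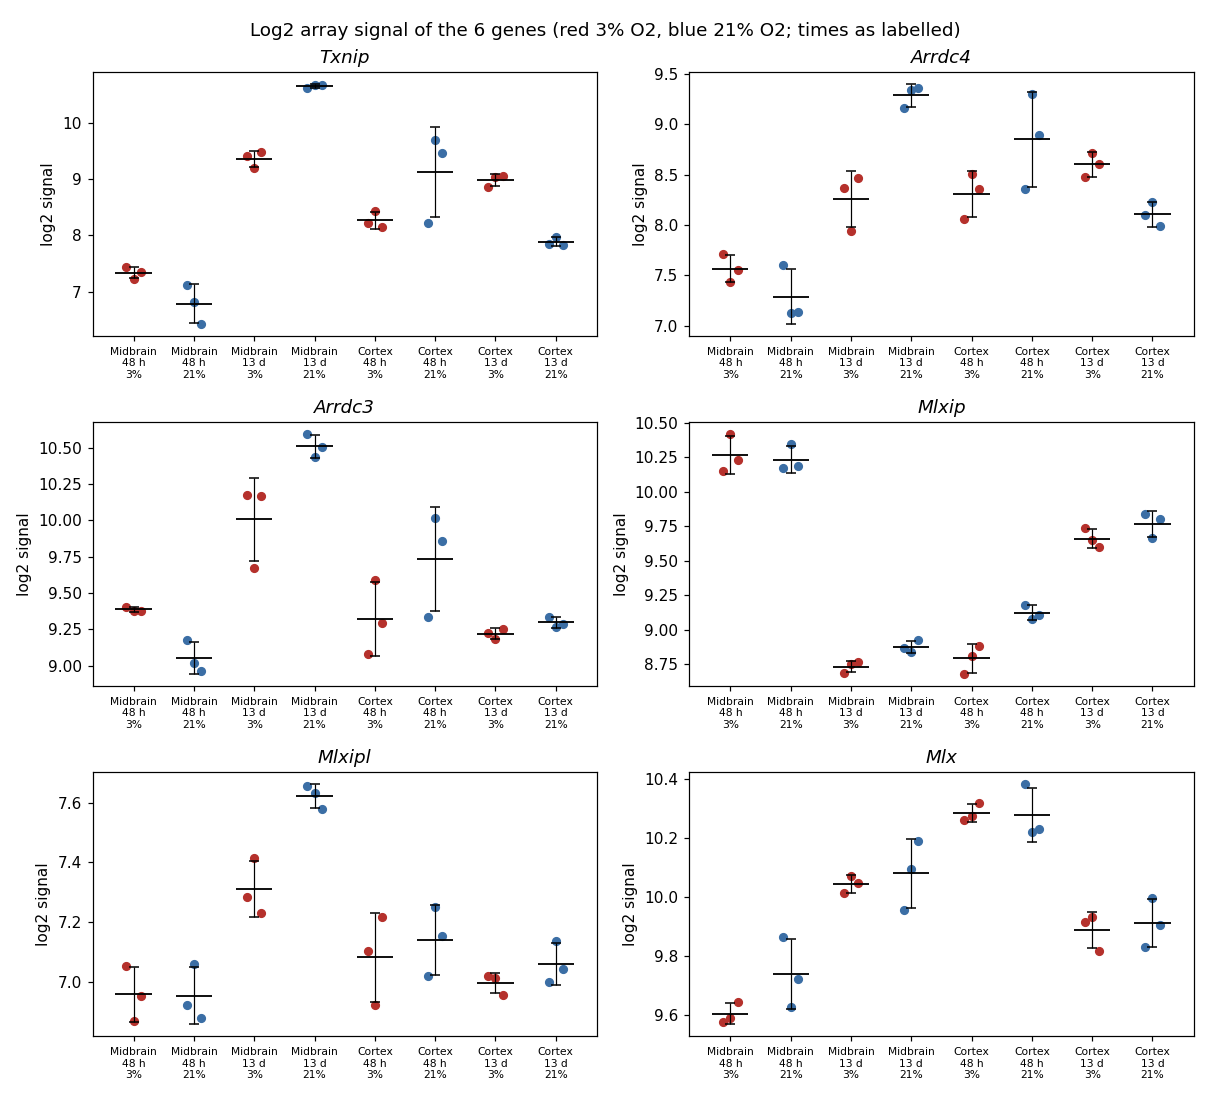
Log2 signal of the 6 genes on the 24 arrays, with 3% O2 (red) left of 21% O2 (blue) in each region and labelled culture time; points are arrays, bars are group means and whiskers SD (n = 3). Txnip ranges from 6.43 on a midbrain 48 h array at 21% O2 to 10.68 on a midbrain 13 d array at 21% O2, and replicate 1 of cortex 48 h at 21% O2 (left blue point) lies below the other arrays of its group for Txnip, Arrdc4 and Arrdc3.

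The 4 differences taken between oxygen responses of Txnip, each between responses of opposite sign, exceeded their standard errors, which is the pattern the genes were chosen for. Responses of the same sign were not set against each other. The response of midbrain 13 d minus that of midbrain 48 h was -1.84 ± 0.34, and that of cortex labelled 13 d minus cortex labelled 48 h was 1.95 ± 0.34. Midbrain minus cortex gave 1.41 ± 0.34 at labelled 48 h and -2.39 ± 0.34 at labelled 13 d. Without replicate 1 of cortex labelled 48 h at 21% O2 the contrasts that use it were 2.41 between the cortex times and 1.86 between the regions at labelled 48 h. Over all probe sets, limma called a difference of responses for 15.1% between the midbrain times, 4.13% between the cortex times, 5.88% between the regions at labelled 48 h and 13.5% at labelled 13 d. In whole cultures, fewer cells of a type and less RNA per cell cannot be told apart.

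Marker genes moved in the same comparisons. In midbrain 13 d, the oligodendrocyte precursor gene Gpr17 read 8.98, 8.13 and 9.08 at 3% O2, against 11.12, 10.73 and 10.88 at 21% O2, and the Notch target Hes5 read 9.75, 9.62 and 9.74, against 11.24, 11.26 and 11.12. Their lists did not move as 1 group there, with 1 of 9 oligodendrocyte lineage markers called higher and 2 lower, and 1 of 10 neural stem markers higher and 2 lower. Of all probe sets in midbrain 13 d, 11.2% were called higher and 12.7% lower. In the same cultures 4 of 8 pericyte and fibroblast markers and 4 of 9 cell cycle genes were called higher at 3% O2 and 0 lower, and the pericyte and fibroblast mean was 7.84 to 8.30 at 3% O2, against 7.18 to 7.28 at 21% O2. In cortex labelled 48 h, 6 of 10 neuron markers were called lower at 3% O2 and 1 higher, with a neuron mean of 9.02 to 9.39 at 3% O2, against 9.45 to 9.70 at 21% O2. The shares of all probe sets there were 6.08% lower and 6.25% higher. In both neuron-rich cultures 0 of the 10 neuron, 10 neural stem, 9 oligodendrocyte lineage and 8 astrocyte markers were called, where only 1.19% (midbrain 48 h) and 0.607% (cortex labelled 13 d) of all probe sets were. The part of these markers in the Txnip differences was not tested.

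**Figure D2:**
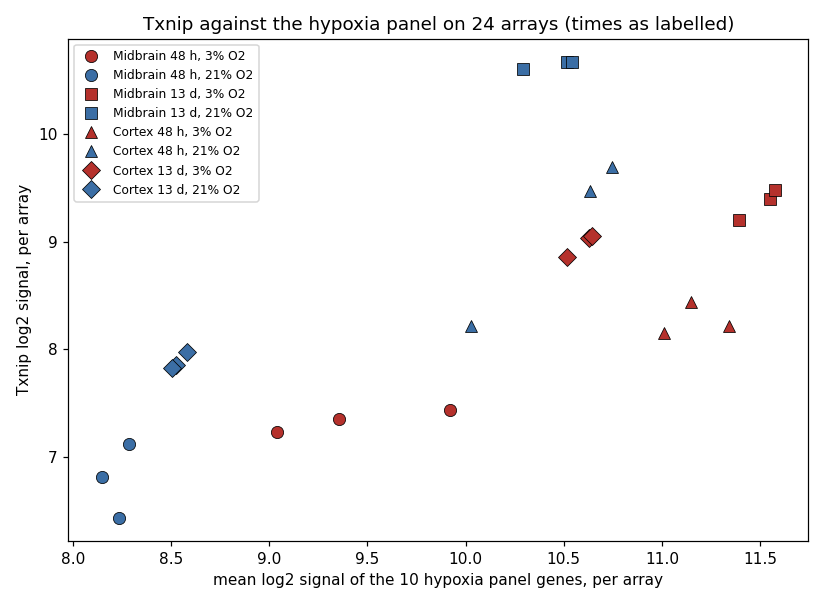
Txnip log2 signal (vertical axis) against the mean log2 signal of 10 hypoxia target genes (horizontal axis) on each of the 24 arrays; colour gives oxygen (red 3% O2, blue 21% O2) and symbol the region and labelled time. The panel mean is higher on the 3% O2 arrays in all 4 region and time pairs, while Txnip is higher on them in midbrain 48 h and cortex labelled 13 d and lower in midbrain 13 d; the lowest blue triangle is replicate 1 of cortex labelled 48 h at 21% O2.

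Arrdc4 had the same signs as Txnip in the 4 oxygen comparisons, with smaller sizes. In midbrain 13 d, Arrdc4 read 8.37, 7.94 and 8.46 at 3% O2, against 9.16, 9.34 and 9.36 at 21% O2, which did not overlap (difference -1.03 ± 0.19, 2.04-fold lower at 3% O2). In cortex labelled 13 d it read 8.48, 8.72 and 8.61 at 3% O2, against 8.10, 8.23 and 7.99 at 21% O2, again without overlap but with 3% O2 higher (0.49 ± 0.19). The other comparisons overlapped. Arrdc4 in midbrain 48 h read 7.71, 7.44 and 7.56 at 3% O2, against 7.60, 7.13 and 7.14 at 21% O2 (0.28 ± 0.19), and in cortex labelled 48 h it read 8.06, 8.50 and 8.36 at 3% O2, against 8.36, 9.30 and 8.90 at 21% O2 (-0.54 ± 0.19, and -0.79 without replicate 1 at 21% O2). As with Txnip, that replicate was the lowest of its group.

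Arrdc3 followed the same signs in 3 of the 4 comparisons. In midbrain 48 h it read 9.40, 9.38 and 9.37 at 3% O2, against 9.17, 9.02 and 8.96 at 21% O2, and in midbrain 13 d it read 10.17, 9.67 and 10.17 at 3% O2, against 10.59, 10.43 and 10.50 at 21% O2. The groups did not overlap in either, with 3% O2 higher by 0.34 ± 0.15 at 48 h (0.29 without replicate 3 at 21% O2) and lower at 13 d (-0.50 ± 0.15). The 13 d difference was -0.34 without replicate 2 at 3% O2. In cortex labelled 48 h the arrays overlapped, with 9.08, 9.59 and 9.29 at 3% O2 and 9.33, 10.01 and 9.85 at 21% O2 (-0.41 ± 0.15, and -0.61 without replicate 1 at 21% O2). In cortex labelled 13 d it read 9.22, 9.18 and 9.25 at 3% O2, against 9.34, 9.27 and 9.29 at 21% O2. These did not overlap, but the difference of -0.08 ± 0.15 was smaller than its standard error.

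The transcription factor genes moved less with oxygen. Mlxip, encoding MondoA, differed by 0.03, -0.14, -0.33 and -0.11 (SE 0.07 each) between 3% and 21% O2 in midbrain 48 h, midbrain 13 d, cortex labelled 48 h and cortex labelled 13 d. In cortex labelled 48 h its arrays did not overlap, at 8.68, 8.81 and 8.88 at 3% O2, against 9.18, 9.08 and 9.11 at 21% O2, and the difference was -0.30 without replicate 1 at 21% O2 and -0.28 without replicate 1 at 3% O2. Mlxipl, encoding ChREBP, differed in midbrain 13 d by -0.31 ± 0.08, with 7.28, 7.42 and 7.23 at 3% O2, against 7.66, 7.63 and 7.58 at 21% O2, and by 0.06 or less in size in the other comparisons. Mlx, the common partner, differed by 0.01 to -0.13, and its groups overlapped in every oxygen comparison.

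Of the 6 genes, 2 had arrays that did not overlap in midbrain 48 h, where 18.8% of all tested probe sets did so (7.84% with 3% O2 higher and 10.9% lower). The counts were 5 in midbrain 13 d (all lower at 3% O2; 40.5% of probe sets in either direction, 22% lower and 18.5% higher), 1 lower in cortex labelled 48 h (22.8%, 11.3% lower and 11.4% higher) and 3 in cortex labelled 13 d, 2 higher and 1 lower (17.6%, 6.94% higher and 10.6% lower). The genes were picked with this contrast in view, so nothing is read from these counts. The median difference of the 6 genes was 0.15 in midbrain 48 h, -0.41 in midbrain 13 d, -0.37 in cortex labelled 48 h and -0.04 in cortex labelled 13 d, beside medians of -0.02, -0.01, 0.00 and -0.01 over all probe sets.

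**Figure D3:**
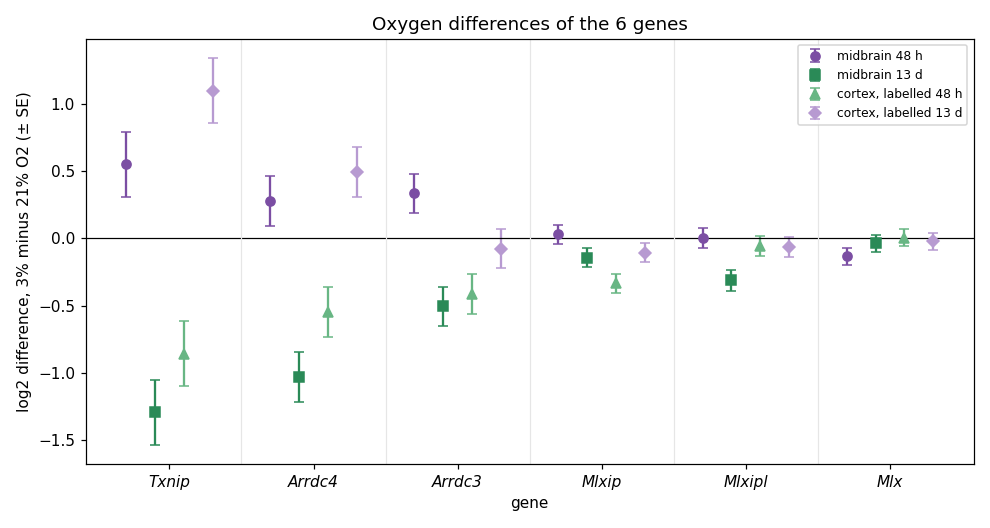
Difference in log2 signal between 3% and 21% O2 (± SE, n = 3 each) for the 6 genes in the 4 region and labelled time groups. Txnip and Arrdc4 lie above 0 in midbrain 48 h and cortex labelled 13 d (purple) and below 0 in midbrain 13 d and cortex labelled 48 h (green), and Mlx lies within 0.14 of 0 in all 4.

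Ordered by group mean, Txnip was highest in midbrain 13 d at 21% O2 (10.65 ± 0.04, SD, n = 3), then in midbrain 13 d at 3% O2 (9.36 ± 0.14), cortex labelled 48 h at 21% O2 (9.13 ± 0.79), cortex labelled 13 d at 3% O2 (8.98 ± 0.11), cortex labelled 48 h at 3% O2 (8.27 ± 0.15), cortex labelled 13 d at 21% O2 (7.89 ± 0.08), midbrain 48 h at 3% O2 (7.34 ± 0.10) and midbrain 48 h at 21% O2 (6.79 ± 0.35). The arrays of cortex labelled 48 h at 21% O2 overlapped with those of both neighbours in this order, and the other neighbours did not overlap. From top to bottom the group means span 3.87 log2 units, or 14.6-fold. The span was 2.00 for Arrdc4, 1.53 for Mlxip, 1.46 for Arrdc3, 0.68 for Mlx and 0.67 for Mlxipl.

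Midbrain was compared with cortex at labelled 48 h at each oxygen level, in the same array run. Txnip and Arrdc4, the pair of glucose-responsive arrestins, were lower in midbrain cultures at both oxygen levels, and Mlxip and Mlx ran in opposite directions. At 3% O2 Txnip averaged 7.34 ± 0.10 in midbrain and 8.27 ± 0.15 in cortex (difference -0.93 ± 0.24, limma adjusted p = 0.00219), and at 21% O2 6.79 ± 0.35 in midbrain and 9.13 ± 0.79 in cortex (-2.34, adjusted p = 5.06e-08). Without replicate 1 of cortex at 3% O2 the first was -0.96, and without replicate 1 of cortex at 21% O2 the second was -2.79. The gap between both level differences is the difference of oxygen responses the genes were chosen for. The larger size at 21% O2 is therefore no separate result. Arrdc4 was lower in midbrain by -0.74 ± 0.19 at 3% O2 (limma adjusted p = 0.00171) and -1.56 at 21% O2 (adjusted p = 3.77e-07), or -1.81 without replicate 1 of cortex at 21% O2.

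Mlxip was higher in midbrain at both oxygen levels, with 10.15, 10.42 and 10.23 in midbrain and 8.68, 8.81 and 8.88 in cortex at 3% O2 (1.47 ± 0.07, limma adjusted p = 4.07e-13) and 1.11 ± 0.07 at 21% O2 (adjusted p = 3.55e-11). The groups were far apart on every array. Mlx was lower in midbrain, by -0.68 ± 0.06 at 3% O2 (adjusted p = 1.4e-08) and -0.54 ± 0.06 at 21% O2 (adjusted p = 4.39e-07). Arrdc3 was lower in midbrain at 21% O2 (-0.68 ± 0.15, adjusted p = 0.000438) and differed by 0.07 ± 0.15 at 3% O2 (adjusted p = 0.716). Mlxipl was lower in midbrain at 21% O2 by -0.19 ± 0.08 (limma adjusted p = 0.0413), a call that ended without replicate 1 or 3 of midbrain or replicate 2 or 3 of cortex (adjusted p 0.0902 to 0.188). At 3% O2 it did not pass (-0.12, adjusted p = 0.164), though it passed without replicate 2 of cortex (adjusted p = 0.0279).

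Of the 6 genes, 4 were called at 3% O2 (3 lower in midbrain and 1 higher), where 61.2% of all probe sets were called (36.9% lower and 24.3% higher), and 6 at 21% O2 (5 lower and 1 higher), beside 54.8% (30.5% lower and 24.3% higher). With a background this high, a call says little about these genes in particular. The neuron markers differed in the same comparison, with 9 of 10 called higher in midbrain at 3% O2 and 10 of 10 at 21% O2. The part of cell makeup was not tested. Midbrain 48 h was also set against cortex labelled 13 d, the other neuron-rich culture, which is no test of cell makeup. The cell cycle mean, for 1, was 9.83 and 9.79 in midbrain 48 h and 11.08 and 11.15 in cortex labelled 13 d at 3% and 21% O2. Txnip was lower in midbrain there, by -1.65 at 3% O2 (limma adjusted p = 1.27e-05) and -1.10 at 21% O2 (adjusted p = 0.000894). Arrdc4 was lower by -1.03 (adjusted p = 0.00012) and -0.82 (adjusted p = 0.00122), Mlxip higher by 0.60 (adjusted p = 7.67e-07) and 0.47 (adjusted p = 1.8e-05), and Mlx lower by -0.28 (adjusted p = 0.00129) and -0.17 (adjusted p = 0.0387), each at 3% and then 21% O2. Arrdc3 (adjusted p = 0.407 and 0.203) and Mlxipl (0.74 and 0.301) did not pass there.

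Within cortex, labelled 13 d was compared with labelled 48 h at each oxygen level, again within 1 array run. Txnip was lower at labelled 13 d at 21% O2 and higher at 3% O2, which restates the opposite oxygen responses the genes were chosen for, since the gap between both level differences is the difference of those responses. At 21% O2 it averaged 7.89 ± 0.08 at labelled 13 d and 9.13 ± 0.79 at labelled 48 h (-1.24 ± 0.24, limma adjusted p = 0.000319, and -1.70 without replicate 1 of labelled 48 h). At 3% O2 it averaged 8.98 ± 0.11 and 8.27 ± 0.15 (0.71 ± 0.24, adjusted p = 0.0217). That call ended when replicate 1 or 3 of labelled 48 h or replicate 2 or 3 of labelled 13 d was left out (adjusted p 0.0572 to 0.0678), although the arrays did not overlap.

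Arrdc4 was lower at labelled 13 d at 21% O2 (-0.74 ± 0.19, limma adjusted p = 0.00306) and differed by 0.29 ± 0.19 at 3% O2 (adjusted p = 0.224). Mlxip was higher at labelled 13 d, by 0.64 ± 0.07 at 21% O2 (adjusted p = 2.94e-07) and 0.87 ± 0.07 at 3% O2 (adjusted p = 3.15e-09), and Mlx was lower, by -0.37 ± 0.06 (adjusted p = 0.000119) and -0.40 ± 0.06 (adjusted p = 4.08e-05). These followed the direction of the midbrain comparison at labelled 48 h, with which they share the cortex labelled 48 h arrays. Arrdc3 was lower at 21% O2 (-0.44 ± 0.15, adjusted p = 0.0229), but the call ended without replicate 2 or 3 of labelled 48 h or replicate 2 or 3 of labelled 13 d (adjusted p 0.0557 to 0.145), and Mlxipl did not pass at either oxygen level. Of the 6 genes, 5 were called at 21% O2 (4 lower and 1 higher, with 37.2% of all probe sets called, 20.4% lower and 16.8% higher) and 3 at 3% O2 (1 lower and 2 higher, beside 42.2%, 24.7% lower and 17.5% higher). In the same comparison 9 of 10 neuron markers were called higher at labelled 13 d at each oxygen level, and the part of cell makeup was not tested.

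**Figure D4:**
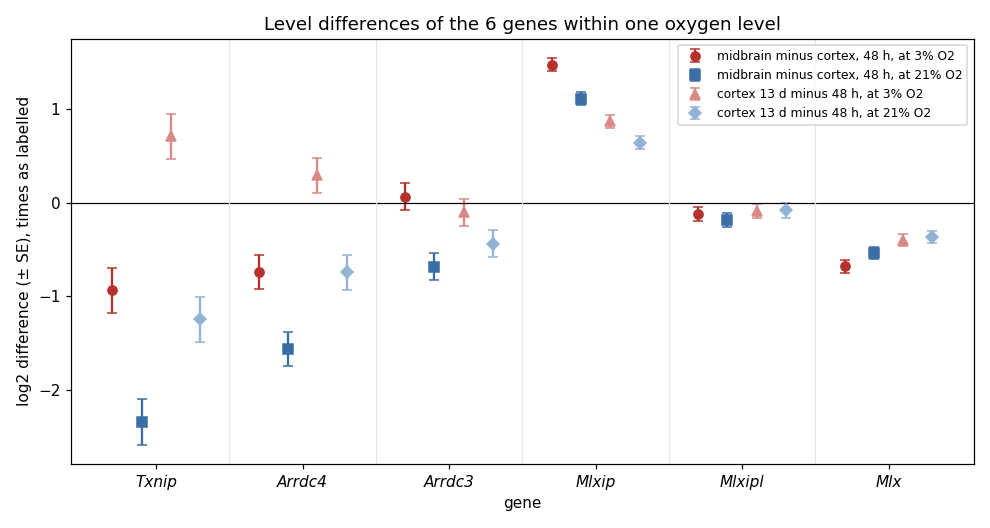
Difference in log2 signal (± SE, n = 3 each) for the 6 genes between midbrain and cortex at labelled 48 h and between cortex at labelled 13 d and 48 h, at 3% O2 (red) and 21% O2 (blue). Mlxip lies above 0 and Mlx below 0 in all 4 comparisons, and Txnip lies at 0.71 between the cortex times at 3% O2 and at -1.24 at 21% O2.

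The genes around this system were taken from 7 lists, with 71 genes measured, and were tested in the oxygen comparisons. For midbrain 48 h 1 of 71 was called, higher at 3% O2 (1.41%, with 1.19% of all probe sets called, 0.701% higher and 0.491% lower). At 13 d in midbrain 38 were called, 27 higher at 3% O2 and 11 lower (53.5%, beside 23.9%, 11.2% higher and 12.7% lower). The counts were 17 in cortex labelled 48 h, 10 higher and 7 lower (23.9%, beside 12.3%, 6.25% higher and 6.08% lower), and 3 in cortex labelled 13 d, all higher (4.23%, beside 0.607%, 0.543% higher and 0.0641% lower). The count in cortex labelled 48 h was 11 without replicate 1 at 3% O2 or without replicate 3 at 21% O2, and 17 without replicate 1 of both groups. The midbrain 48 h count was 2 without replicate 3 at 3% O2 or without replicate 1 or 2 at 21% O2.

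Of 9 measured glucose entry genes, 1, 5, 1 and 3 were called higher at 3% O2 in midbrain 48 h, midbrain 13 d, cortex labelled 48 h and cortex labelled 13 d, and 0 lower, beside 0.701%, 11.2%, 6.25% and 0.543% of all probe sets called higher. The single calls in midbrain 48 h and cortex labelled 48 h are no result about the list. Slc2a1, encoding the GLUT1 transporter that TXNIP restrains, rose at 3% O2 by 1.18 ± 0.20 in midbrain 48 h (limma adjusted p = 0.00633, but 0.194 when only the compared arrays were fitted). That rise was 0.84 without replicate 1 at 3% O2, and 1.30 and 1.12 without replicate 3 at 3% and at 21% O2. Slc2a1 also rose by 1.02 ± 0.20 in midbrain 13 d (adjusted p = 0.000796) and 1.95 ± 0.20 in cortex labelled 13 d (adjusted p = 1.58e-05). It differed by 0.55 ± 0.20 in cortex labelled 48 h (adjusted p = 0.0864), and by 0.35 without replicate 1 at 21% O2. Slc2a3, encoding the neuronal transporter GLUT3, rose by 1.96 ± 0.23 in midbrain 13 d (adjusted p = 2.49e-06), 1.14 ± 0.23 in cortex labelled 48 h (adjusted p = 0.00204) and 1.72 ± 0.23 in cortex labelled 13 d (adjusted p = 0.000199). The Slc2a3 rise in cortex labelled 48 h was 0.84 without replicate 1 at 21% O2. Its difference in midbrain 48 h was 0.90 ± 0.23 (adjusted p = 0.0607). Slc2a1 thus rose in midbrain 48 h and cortex labelled 13 d, where Txnip was higher at 3% O2, and in midbrain 13 d, where it was lower.

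Among 14 textbook targets of ChREBP or MondoA, 8 rose and 0 fell at 3% O2 in midbrain 13 d, 3 rose and 1 fell in cortex labelled 48 h, and 0 were called in the neuron-rich cultures. Of all probe sets, 11.2% rose and 12.7% fell in midbrain 13 d, and 6.25% rose and 6.08% fell in cortex labelled 48 h. Only 1.19% (midbrain 48 h) and 0.607% (cortex labelled 13 d) were called in the neuron-rich cultures, where a count of 0 says little about any of these lists. Klf10, an early transcription factor known to respond to glucose, read 9.85, 10.05 and 9.83 at 3% O2, against 8.77, 8.91 and 8.99 at 21% O2 in midbrain 13 d. It rose by 1.02 ± 0.17 there (limma adjusted p = 0.000119) and by 1.47 ± 0.17 in cortex labelled 48 h (adjusted p = 9.82e-06), or 1.79 without replicate 1 at 21% O2, where Txnip was lower. Fasn, the fatty acid synthase gene, rose in midbrain 13 d by 0.51 ± 0.05 (adjusted p = 3.36e-07) and differed by -0.11, -0.07 and 0.01 in cortex labelled 48 h, midbrain 48 h and cortex labelled 13 d (adjusted p 0.159 to 0.999). In midbrain 13 d the called targets thus had the opposite sign to Txnip and Arrdc4.

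In the thioredoxin system, 3 of 11 genes rose and 1 fell in midbrain 13 d, 2 rose in cortex labelled 48 h, and 0 were called in the other comparisons. The shares over all probe sets were 11.2% higher and 12.7% lower in midbrain 13 d, and 6.25% higher and 6.08% lower in cortex labelled 48 h. Counts this small are no result about the list. Srxn1, encoding sulfiredoxin, which repairs over-oxidised peroxiredoxins, rose by 0.84 ± 0.11 in midbrain 13 d (limma adjusted p = 1.09e-05) and 0.62 ± 0.11 in cortex labelled 48 h (adjusted p = 0.000802). Txnrd3, a thioredoxin reductase gene, rose by 0.48 ± 0.07 (adjusted p = 5.16e-05) and 0.51 ± 0.07 (adjusted p = 9.18e-05). Both genes in midbrain 48 h and cortex labelled 13 d lay within 0.07 of 0.

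The MYC, MAX and MXD network, whose members share bHLH zipper partners with MLX, had 5 of 10 genes lower and 1 higher at 3% O2 in midbrain 13 d, 4 lower and 1 higher in cortex labelled 48 h, and 0 called elsewhere. All probe sets gave 12.7% lower and 11.2% higher in midbrain 13 d, and 6.08% lower and 6.25% higher in cortex labelled 48 h. Mycl, a MYC family gene, read 8.72, 8.44 and 8.58 at 3% O2, against 9.41, 9.55 and 9.33 at 21% O2 in midbrain 13 d and fell by 0.85 (SE 0.08, limma adjusted p = 4.07e-07). It fell by 0.54 in cortex labelled 48 h (adjusted p = 0.000243). Mxd4, whose product pairs with MAX or MLX and represses E-box genes, fell by 0.66 in midbrain 13 d (adjusted p = 2.18e-05) and differed by 0.01 in cortex labelled 48 h (adjusted p = 0.965).

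Ubiquitin ligases of the NEDD4 family, which bind alpha-arrestins and mark them for degradation, had 5 of 9 genes higher and 1 lower at 3% O2 in midbrain 13 d, 2 lower in cortex labelled 48 h and 0 called in the other comparisons. Beside these stand 11.2% of all probe sets higher and 12.7% lower in midbrain 13 d, and 6.08% lower in cortex labelled 48 h. Wwp2 fell by 0.66 (SE 0.06) in midbrain 13 d (limma adjusted p = 2.69e-07) and by 0.51 in cortex labelled 48 h (adjusted p = 2.87e-05). Wwp1 rose by 0.39 ± 0.07 in midbrain 13 d (adjusted p = 0.000239) and differed by 0.06 in cortex labelled 48 h (adjusted p = 0.673). Members of the family thus moved both ways in midbrain 13 d.

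Of 11 energy-sensing genes, 5 rose and 2 fell in midbrain 13 d and 2 rose in cortex labelled 48 h. For all probe sets the shares were 11.2% higher and 12.7% lower in midbrain 13 d, and 6.25% higher in cortex labelled 48 h. Prkaa2, a catalytic subunit of AMPK, the kinase that marks TXNIP for degradation, read 9.17, 9.16 and 9.13 at 3% O2, against 8.28, 8.22 and 8.23 at 21% O2 in midbrain 13 d and rose by 0.91 ± 0.12 (limma adjusted p = 1.43e-05). In cortex labelled 48 h it rose by 0.49 ± 0.12 (adjusted p = 0.0108), and by 0.27 without replicate 1 at 3% O2 (adjusted p = 0.0408). Foxo3 rose by 0.41 ± 0.08 in midbrain 13 d (adjusted p = 0.000601). In cortex labelled 48 h it differed by -0.07 (adjusted p = 0.668), and by -0.20 without replicate 1 at 21% O2 (adjusted p = 0.0267).

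The 7 other arrestins moved little, with 2 lower at 3% O2 in midbrain 13 d and 1 higher in cortex labelled 48 h. With 12.7% of all probe sets lower in midbrain 13 d and 6.25% higher in cortex labelled 48 h, these counts are no result about the list. Arrb2, encoding beta-arrestin 2, fell by 0.21 in midbrain 13 d (SE 0.06, limma adjusted p = 0.0133), a call that ended without replicate 1 or 3 at 3% O2 or replicate 2 at 21% O2 (adjusted p 0.0533 to 0.0652). Arrdc2, another alpha-arrestin, rose by 0.23 ± 0.07 in cortex labelled 48 h (adjusted p = 0.0286), and this call ended in 5 of 6 fits that left out 1 array (adjusted p 0.0517 to 0.177), the exception being that without replicate 2 at 3% O2. Both changes were small beside those of Txnip and Arrdc4.

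**Figure D5:**
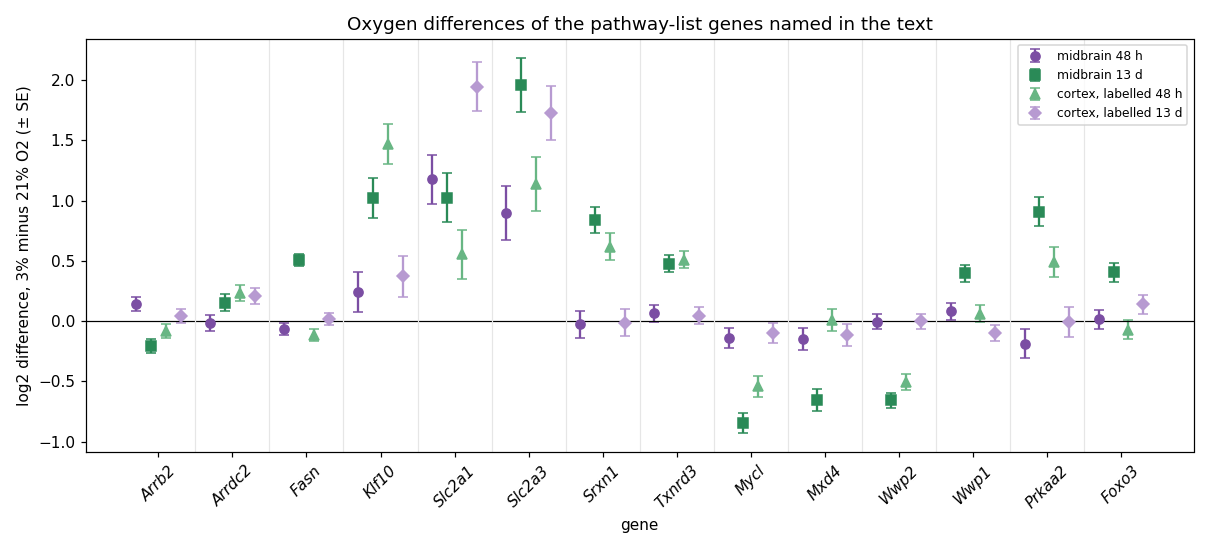
Difference in log2 signal between 3% and 21% O2 (± SE, n = 3 each) for the 14 pathway genes named in the text, in the 4 region and labelled time groups. Slc2a1 and Slc2a3 lie above 0 in all 4, whereas Klf10, Srxn1, Txnrd3 and Prkaa2 are called higher and Mycl and Wwp2 called lower in midbrain 13 d and cortex labelled 48 h (green) but not in midbrain 48 h and cortex labelled 13 d (purple). The cortex labelled 48 h calls of Klf10, Srxn1, Prkaa2 and Mycl were lost when only the compared arrays were fitted.

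The same lists differed between the cultures at 1 oxygen level. Midbrain against cortex at labelled 48 h called 52 of 71 genes at 3% O2 (73.2%, beside 61.2% of all probe sets) and 48 at 21% O2 (67.6%, beside 54.8%), and labelled 13 d against 48 h within cortex called 42 at 3% O2 (59.2%, beside 42.2%) and 38 at 21% O2 (53.5%, beside 37.2%). The neuronal ligase gene Hecw1 differed most by p, higher by 4.74 at 3% O2 and 4.31 at 21% O2 in midbrain (limma adjusted p = 5.21e-17 and 2.79e-16) and by 4.24 and 3.70 at cortex labelled 13 d (adjusted p = 1.3e-15 and 1.57e-14). Its relative Hecw2 (1.79 and 1.65) and, at 21% O2, Nedd4l were also higher in midbrain, as were Mga (0.77 and 0.85), a large MAX partner, and at 3% O2 Mnt (0.91), a repressor that pairs with MAX or MLX, and Wwp2 (0.96). Prdx3, encoding the mitochondrial peroxiredoxin, was lower in midbrain by -2.40 at 3% O2 and -1.98 at 21% O2, and Foxo4 by -1.12 at 21% O2. At cortex labelled 13 d Mycn (1.95 and 1.73) and Nedd4l (1.28 and 1.22) were higher at 3% and 21% O2 and Foxo3 lower (-0.90 and -1.11), while Slc2a12 (-1.39) and Wwp1 (-0.83) were lower at 3% O2 and Foxo4 (-0.73) was lower and Mga (0.54) higher at 21% O2. Limma adjusted p-values of these genes lay between 2.11e-13 and 8.77e-08.

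Across the 8 group means, the genes most like Txnip among 10618 brighter genes were Fancg (Pearson r 0.960), Nudt16 (0.959), Hdac3 (0.959), Eif2d (0.958), Tgfb3 (0.958) and Recql5 (0.958). These values describe 8 points that share arrays, batches and cell makeup, and with so many candidates high values are found readily. Among the members, r was 0.94 for Arrdc4 (20 candidates had a higher value), 0.87 for Mlxipl, 0.87 for Arrdc3, 0.59 for Mlx and -0.78 for Mlxip. Hdac3, a histone deacetylase gene, differed by 0.07, -0.14, -0.09 and 0.12 (SE 0.05 each) between 3% and 21% O2 in midbrain 48 h, midbrain 13 d, cortex labelled 48 h and cortex labelled 13 d. Tgfb3, a TGF-beta ligand gene, differed by -0.80 ± 0.10 in midbrain 13 d and 0.00 in cortex labelled 13 d. Likeness over group means therefore did not carry over to each oxygen response.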

How the data were processed

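Biotin-labelled cDNA was hybridised to 24 whole-transcript mouse gene arrays. Per the labels, the values the authors deposited for 28856 probe sets are normalized log2 signals. The log2 scale was read from the values (4.65 to 14.5), and the sources used here name no normalization method. No depth exists for arrays, whose number limits the precision.

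The probe table named 23410 probe sets, all of which were tested: 21789 with 1 symbol (19938 genes) and 1621 with several. The other 5446 have no name in it. Of the probe sets with 1 symbol, 21698 had an Entrez number in RefSeq's table of GRCm38.p6, and 0 symbols changed. A gene with several probe sets was represented by the one with the highest mean.

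Limma 3.58.1 in R 4.3.3 fitted 8 group means to the 24 arrays (16 residual degrees of freedom), with eBayes, two-sided tests and Benjamini-Hochberg adjustment over all named probe sets within a comparison, at a threshold of 0.05. The fit was tested on simulated data. The members and lists were chosen with earlier results of these data known.

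Named genes were the 6 members, the 2 genes per pathway list with the smallest p in any oxygen comparison, the 6 list genes with the smallest p per level comparison, and the 6 genes most like Txnip among single-symbol genes brighter than the median probe set, without clone-type symbols. Vegfa, Slc16a3 and Pdk1 were chosen as single checks of the oxygen treatment.

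Deviations from group means correlated between same-numbered 3% and 21% O2 arrays by 0.12, 0.22 and 0.24 in midbrain 48 h and 0.12, 0.42 and 0.31 in midbrain 13 d, so these numbers were taken to pair the samples, from the data alone. For replicate 1 of midbrain 13 d an array of another number correlated more highly (0.16), so that pair is less certain. The alternatives tried were quantile normalization, median centring, brighter probe sets, all probe sets, trend and robust moderation, the compared arrays alone, a replicate block, crossed cortex times and leaving out single arrays.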

Additional observations from a re-analysis of the deposited data

Results flagged for a closer look

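The oxygen response (3% minus 21% O2, log2) of several genes differed between groups, and each value below is a difference of 2 such responses. For the members, the 3% and 21% O2 arrays did not overlap in either group and lay in opposite order, and the difference was not tested. Between midbrain 13 d and midbrain 48 h these were Txnip (-1.84) and Arrdc3 (-0.84), and between midbrain and cortex at labelled 13 d they were Txnip (-2.39) and Arrdc4 (-1.52). The Arrdc3 value was -0.67 without replicate 2 of midbrain 13 d at 3% O2.

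Of the listed pathway genes, only those picked per list by the smallest p in any oxygen comparison of these arrays were examined here. A called difference of responses is therefore partly built into that choice. The shares of all probe sets given beside them are no fair comparison. For the pathway genes given below, the difference itself passed limma's interaction test with Benjamini-Hochberg adjustment. Between midbrain 13 d and midbrain 48 h (15.1% of all probe sets called), the response at 13 d was more positive for Fasn (0.58), Klf10 (0.78), Slc2a3 (1.06), Srxn1 (0.87), Txnrd3 (0.41), Wwp1 (0.32), Prkaa2 (1.10) and Foxo3 (0.39), and more negative for Arrb2 (-0.34), Mycl (-0.71), Mxd4 (-0.51) and Wwp2 (-0.65). Between cortex labelled 13 d and 48 h (4.13% called), it was more positive for Slc2a1 (1.39), Mycl (0.44) and Wwp2 (0.50), and more negative for Klf10 (-1.10), Srxn1 (-0.63) and Txnrd3 (-0.46).

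Between midbrain and cortex at labelled 48 h (5.88% called), the midbrain response was more positive for Wwp2 (0.50), and more negative for Klf10 (-1.23), Srxn1 (-0.64), Txnrd3 (-0.45) and Prkaa2 (-0.68). At labelled 13 d (13.5% called), the midbrain response was more positive for Fasn (0.50), Srxn1 (0.85), Txnrd3 (0.43), Wwp1 (0.49) and Prkaa2 (0.92), and more negative for Slc2a1 (-0.92), Mycl (-0.75), Mxd4 (-0.54) and Wwp2 (-0.66). Adjusted p-values of these 32 differences lay between 1.96e-05 and 0.0413. Midbrain 13 d arrays were of another array run than the rest, and its part was not tested.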

How the results depend on the processing

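Across the alternatives, 0 results were classed as reversed, but differences near 0 could change sign. Without replicate 1 of cortex labelled 48 h at 3% O2, Arrdc3 for midbrain minus cortex at 3% O2 went from 0.07 to -0.05. Leaving out the same array took the Mxd4 oxygen difference in cortex labelled 48 h from 0.01 to -0.14. The Txnip results and the counts of listed pathway genes kept their size or call in all but the settings below. Leaving out 1 array gave Txnip oxygen differences of 0.37 to 0.72 in midbrain 48 h, -1.35 to -1.21 in midbrain 13 d, -1.31 to -0.57 in cortex labelled 48 h and 1.06 to 1.16 in cortex labelled 13 d. The differences of Txnip responses ranged from -2.01 to -1.66 between the midbrain times, 1.67 to 2.41 between the cortex times, 1.12 to 1.86 between the regions at labelled 48 h and -2.45 to -2.31 at labelled 13 d. Txnip levels ranged from -0.99 to -0.85 at 3% O2 and -2.79 to -2.06 at 21% O2 for midbrain minus cortex, and from 0.65 to 0.80 at 3% O2 and -1.70 to -0.96 at 21% O2 for cortex labelled 13 d minus 48 h, where the 3% O2 call was lost in 4 of these fits.

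The count of listed pathway genes called ranged from 1 to 2 in midbrain 48 h (main value 1), 29 to 34 in midbrain 13 d (38), 11 to 19 in cortex labelled 48 h (17) and 2 to 2 in cortex labelled 13 d (3) when 1 array was left out. In midbrain 48 h it was 2 with quantile normalization and 2 with brighter probe sets. Slc2a3 gained a call there in both settings (limma adjusted p = 0.0442 and 0.0472). In cortex labelled 48 h, Pdk1 gained a call with brighter probe sets (adjusted p = 0.0406). Without replicate 2 at 21% O2 in that culture, Vegfa (0.0245) and Pdk1 (0.0447) gained calls. Fits of the compared arrays alone, which have fewer arrays to estimate the spread, called 0 in midbrain 48 h, 2 in cortex labelled 48 h and 5 in cortex labelled 13 d. The hypoxia targets Vegfa, Slc16a3 and Pdk1 also lost their call in midbrain 48 h in that setting (adjusted p 0.0711, 0.167 and 0.182), as did Slc2a1 (0.194). In cortex labelled 48 h, Klf10 (limma adjusted p 0.0707), Srxn1 (0.0715), Mycl (0.0916), Slc16a3 (0.112), Slc2a3 (0.12), Arrdc2 (0.244) and Prkaa2 (0.249) lost theirs. Klf10 gained a call in cortex labelled 13 d (0.0109). At 21% O2 the level calls of Mlxipl between regions (0.116) and Arrdc3 between cortex times (0.1) were lost. Trend and robust moderation ended the calls of Arrdc2 in cortex labelled 48 h (0.0542) and Mlxipl between regions at 21% O2 (0.0529).

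The replicate block cannot change a difference between groups that hold the same replicate numbers. The Txnip difference in midbrain 48 h thus stayed at 0.55, with an SE of 0.20 in place of 0.24. With the block, the counts of listed genes called were 1, 36, 17 and 3. Among the results named here only Arrdc2 in cortex labelled 48 h lost its call (limma adjusted p = 0.0629). With cortex times crossed, the calls of Arrdc3 and Mlxipl between regions at 21% O2 were lost (adjusted p 0.203 and 0.301). Leaving out replicate 1 of both cortex labelled 48 h groups was chosen after seeing the data. The normalization method is unknown, and these values carry no background estimate, so how far dim probe sets stand above background is not known.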
